A study of Mus musculus with 10 samples.

Results

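TRBV13-1, TRBV13-2 and TRBV13-3 are the 3 mouse paralogs of the T cell receptor beta variable family long known as Vbeta8. Their receptors were followed in splenic regulatory T (Treg) cells, which were used directly ex vivo with no treatment. Members were all clonotype entries called as one of the 3 genes whose CDR3, the hypervariable loop at the V-D-J junction, ended in one of 10 beta chain J ends. Of 33915 entries carrying a TRBV13 name, 32310 met this rule, with 11197 for TRBV13-1, 11647 for TRBV13-2 and 9466 for TRBV13-3. They were 32310 of 193000 distinct beta chain (TRB) clonotypes and held 39989 of 266347 TRB counts. A distinct clonotype is a combination of V gene, J gene and CDR3 nucleotides in a single sample.

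The 10 samples fall into 2 groups of 5 by their strain label. CNS4KO mice lacked CNS4, a Foxp3 enhancer, and CNS4Flox mice, the controls, carried it in floxed form. Foxp3 encodes the transcription factor by which Treg cells are defined. The labels give no age, sex or Cre line. They do not state that each replicate was a mouse of its own, so p-values measure only the spread between these samples. The stated purpose of the sequencing was TCR repertoire diversity.

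Beta chains are assembled in the thymus by joining 1 V, 1 D and 1 J gene, with bases trimmed from the gene ends and template-free bases added between them. The V gene encodes the start of CDR3 and the loops outside it. Vbeta8 receptors are common in laboratory mice, bind the bacterial superantigen staphylococcal enterotoxin B, and in the TRBV13-2 form are frequent in invariant natural killer T (NKT) cells. In RefSeq (mm10, chromosome 6) Trbv13-1 lies at 41116036 to 41116468, Trbv13-2 at 41121396 to 41121832 and Trbv13-3 at 41130147 to 41130585. Each is annotated as a V gene segment, and they alternate with Trbv12-1, Trbv12-2 and the pseudogene Trbv12-3, followed by Trbv14.

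The V-encoded start of CDR3 is shown for the 3 paralogs because the paralogs differ there by 1 base. These are the most frequent first 16 bases among clonotypes in which the V match covered all 16, read from the deposited CDR3 sequences, with the base that differs between paralogs in capitals.
TRBV13-1: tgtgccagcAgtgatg
TRBV13-2: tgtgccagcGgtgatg
TRBV13-3: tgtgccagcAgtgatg
TRBV13-1 and TRBV13-3 had the same 16 bases, and TRBV13-2 differed by A10G, counted from 1 at the first base of the cysteine codon. Of clonotypes with a 16-base match, 94.3%, 95.7% and 93.7% carried exactly these bases in TRBV13-1, TRBV13-2 and TRBV13-3.

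The clonotype with the most counts is shown for each paralog and group, to give the make-up of a junction. Capitals mark inserted bases, those lying between the V, D and J matches. Whether each of them was template-free was not examined.
TRBV13-1, TRBJ1-1, CNS4KO: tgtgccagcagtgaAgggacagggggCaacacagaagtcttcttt
TRBV13-1, TRBJ2-1, CNS4Flox: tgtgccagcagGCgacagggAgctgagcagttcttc
TRBV13-2, TRBJ1-4, CNS4KO: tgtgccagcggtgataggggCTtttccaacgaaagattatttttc
TRBV13-2, TRBJ1-5, CNS4Flox: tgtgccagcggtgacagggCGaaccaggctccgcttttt
TRBV13-3, TRBJ2-7, CNS4KO: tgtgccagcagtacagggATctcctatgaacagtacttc
TRBV13-3, TRBJ2-4, CNS4Flox: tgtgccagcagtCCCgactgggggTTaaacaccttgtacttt
The 3 CNS4KO clonotypes came from replicate 4 and held 19, 9 and 22 counts in the order TRBV13-1, TRBV13-2, TRBV13-3. The 3 CNS4Flox clonotypes came from replicate 3 and held 9 counts each, 0.0273% of its TRB counts. These were the deepest TRB libraries of their groups. By share of TRB counts, some clonotypes of other CNS4Flox samples were larger than the CNS4Flox clonotypes shown. They included a TRBV13-1 clonotype of replicate 5 (0.0371%) and TRBV13-3 clonotypes of replicates 1 (0.0323%) and 4 (0.0288%). The TRBV13-3 clonotype with 22 counts was 0.0632% of its sample's TRB counts and ranked 44 in that sample. In CNS4KO replicates 1 and 2 no TRBV13 clonotype was among the 100 most abundant TRB clonotypes, and in the other samples 1 to 11 were.

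Depth was 19199 to 34833 TRB counts and 13781 to 24496 distinct TRB clonotypes per sample. Whether a count is a read or a molecule is not stated, so the precision given by these counts covers counting error only. CNS4KO replicate 5 and CNS4Flox replicate 3 shared 96 TRBV13 nucleotide clonotypes, whereas the other 44 pairs of samples shared 9 to 37. The values without both are given where they change a call. Foxp3 and other Treg transcripts were not measured. The alpha chains were searched only for CDR3s of MAIT and invariant NKT cells, so the presence of other T cells was not checked. The CDR3 of the MAIT cell alpha chain had 0 counts in all 10 samples. The invariant NKT alpha CDR3 had 42 to 89 counts in CNS4Flox samples and 69 to 135 in CNS4KO samples, or 0.0831% to 0.215% and 0.144% to 0.242% of counts without a beta end. Its part in the TRBV13-2 values was not tested. A further 161, 250 and 1194 entries named TRBV13-1, TRBV13-2 and TRBV13-3 had no beta end and were left out, 11.2% of the entries in the case of TRBV13-3.

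The base at position 10 separated the receptors by amino acid start. CDR3 began with CASG in 94.6% ± 0.758 of distinct TRBV13-2 clonotypes (SD, n = 10 samples). In TRBV13-1 the start was CASS in 84.0% ± 1.01, and in TRBV13-3 in 81.2% ± 1.67 (SD, n = 10). The start of one was rare in the other paralogs, CASG being 0.975% of TRBV13-1 and 0.955% of TRBV13-3 clonotypes, and CASS 0.485% of TRBV13-2 clonotypes. Aspartate often came next, as CASGD in 49.1% ± 1.68 of TRBV13-2, CASSD in 37.2% ± 1.39 of TRBV13-1 and CASSD in 37.1% ± 1.42 of TRBV13-3 clonotypes (SD, n = 10). CASR, with arginine in that place, opened 9.09% ± 0.889 of TRBV13-1, 10.9% ± 0.975 of TRBV13-3 and 0.428% ± 0.211 of TRBV13-2 clonotypes (SD, n = 10).

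Of the 3 paralogs, TRBV13-2 kept the most V bases at the junction. On average 13.86 of its CDR3 bases matched the V gene, against 13.45 in TRBV13-1 and 13.27 in TRBV13-3, which placed them 8, 11 and 12 among 22 TRBV genes. TRBV13-2 exceeded both others in 10 of 10 samples and TRBV13-1 exceeded TRBV13-3 in 10 of 10. Each of these differences had an adjusted p of 0.0041 in two-sided exact paired permutation tests over the 10 samples, with Benjamini-Hochberg adjustment over 21 paralog comparisons. The corresponding unadjusted p of 0.00195 is the smallest that 1024 sign arrangements allow. Of these 21 comparisons, covering 7 quantities, 14 passed an adjusted p of 0.05.

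**Figure D1:**
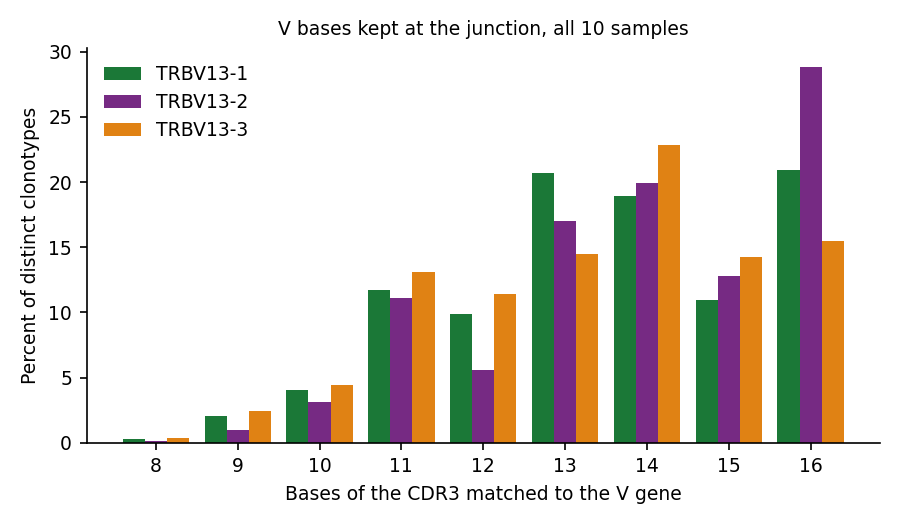
Distribution of the number of CDR3 bases matched to the V gene (x axis, 8 to 16 bases) as the percent of distinct clonotypes of each paralog (y axis), pooled over 10 samples. TRBV13-2 has the tallest bar at 16 bases (28.9%), against 20.9% for TRBV13-1 and 15.5% for TRBV13-3.

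The complete V start was also most frequent in TRBV13-2. All 16 bases were kept in 28.9% ± 1.60 of TRBV13-2, 21.01% ± 1.60 of TRBV13-1 and 15.4% ± 1.61 of TRBV13-3 clonotypes (SD, n = 10). The sample ranges did not overlap between paralogs, at 26.95% to 32.2%, 18.4% to 23.2% and 12.6% to 17.1%. The base just after a complete 16-base match was C in 65.6% ± 1.69 of such TRBV13-2 clonotypes, 50.6% ± 2.14 of TRBV13-1 and 41.4% ± 1.69 of TRBV13-3 (SD, n = 10). Sample ranges of that value were 63.1% to 68.1%, 48.1% to 54.3% and 38.8% to 44.3%, so every sample of one paralog lay apart from every sample of the others. These 2 values were not among the 21 tested comparisons.

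CDR3 length followed the order of V bases kept. Mean length was 41.61 bases in TRBV13-2, 41.36 in TRBV13-1 and 41.18 in TRBV13-3, each distinct clonotype counted once. TRBV13-2 was longer than TRBV13-3 in 10 of 10 samples (adjusted p = 0.0041, exact paired permutation) and longer than TRBV13-1 in 9 of 10 (adjusted p = 0.0126, exact paired permutation). TRBV13-1 was longer than TRBV13-3 in 9 of 10 samples, with an adjusted exact permutation p of 0.00684. The difference of 0.185 bases between TRBV13-1 and TRBV13-3 became 0.160 (adjusted exact permutation p = 0.0527) when clonotypes were weighted by count. Among clonotypes with a count of at least 2, neither length difference of TRBV13-1 passed (adjusted exact permutation p = 0.185 against TRBV13-2 and 0.781 against TRBV13-3). The 42-base length, 14 codons, was held by 29.8% to 30.7% of clonotypes in all 3 paralogs.

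No difference in inserted bases passed with all samples. They averaged 3.84 ± 0.0881 in TRBV13-1, 3.91 ± 0.100 in TRBV13-2 and 3.85 ± 0.0495 in TRBV13-3 (SD, n = 10). The difference between TRBV13-1 and TRBV13-2, -0.0708 bases ± 0.0903 (SD of the paired difference), had an adjusted exact permutation p of 0.0574. It passed without CNS4KO replicate 5 (-0.0862 bases, adjusted exact permutation p = 0.0234), without CNS4Flox replicate 1 (-0.0827, adjusted p = 0.0437 by the same exact test) and without CNS4KO replicate 5 and CNS4Flox replicate 3 together (-0.0764, adjusted exact p = 0.0469). Without CNS4Flox replicate 1, TRBV13-2 also exceeded TRBV13-3 by 0.0896 bases, with an adjusted exact permutation p of 0.0234 against 0.146 with all samples. With a count of at least 2 the same difference turned, to -0.367 bases (adjusted exact permutation p = 0.0176). Junctions with no inserted base were 0.599%, 0.773% and 0.559% of clonotypes in TRBV13-1, TRBV13-2 and TRBV13-3. The longest V match was 16 bases. After a complete match the next base was C in 50.6%, 65.6% and 41.4% of such clonotypes, in the same order. How often that C was a V base counted as inserted was not tested. Its part in the differences in inserted bases between paralogs was not tested either.

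The D gene could be named in nearly all clonotypes. TRBD2 was called in 38.8% ± 1.84 of TRBV13-2, 35.7% ± 1.54 of TRBV13-1 and 34.3% ± 2.28 of TRBV13-3 clonotypes (SD, n = 10). Clonotypes without a called D were 2.64% to 3.59% in the group means of the 3 paralogs. D calls rest on short matches and are less certain than V and J calls.

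No J gene separated the paralogs after adjustment. TRBJ2-7 was the most used J gene, in 21.2% ± 1.37 of TRBV13-1, 20.4% ± 1.58 of TRBV13-2 and 20.0% ± 2.07 of TRBV13-3 clonotypes (SD, n = 10), against 19.6% over all TRBV genes. TRBJ2-5 came next in each paralog, with 14.2%, 14.1% and 13.01%, and TRBJ1-5 was the least used, with 2.83%, 3.20% and 2.21%. The TRBJ2 genes together held 69.9%, 69.3% and 69.2% of clonotypes, and none of the 3 pairwise differences passed (adjusted exact permutation p 0.390 to 0.986). With a count of at least 2, TRBV13-1 exceeded TRBV13-3 by 4.76 points of TRBJ2, with an adjusted exact permutation p of 0.0228.

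Single J genes gave 0 of 36 paralog differences past an adjusted p of 0.05 by exact paired permutation, and 9 of 36 with an unadjusted p under 0.05. The TRBJ1-5 share of TRBV13-2 exceeded that of TRBV13-3 in 10 of 10 samples, by 0.989 points ± 0.503 (SD), with an adjusted exact p of 0.0703. TRBJ2-2 was lower in TRBV13-2 than in TRBV13-3 in 9 of 10 samples, by 0.890 points, with the same adjusted p of 0.0703 by exact permutation. These J genes were named after their values were seen.

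**Figure D2:**
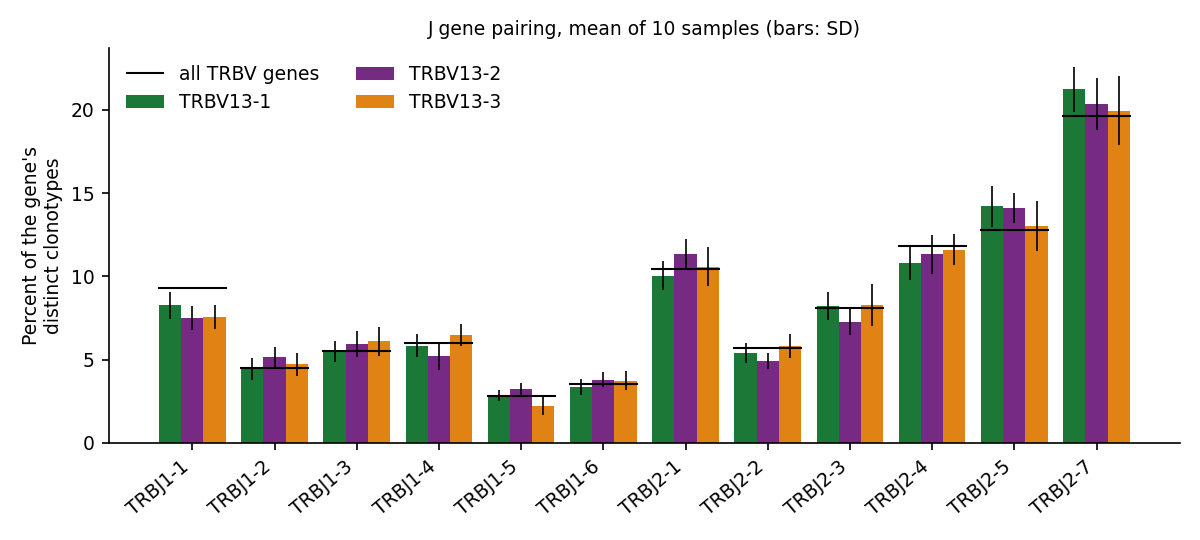
Share of each TRBJ gene (x axis) among the distinct clonotypes of each paralog (y axis, percent), as means of 10 samples with SD bars, with the mean over all TRBV genes as black lines. TRBJ2-7 is the tallest for all 3 paralogs, at 21.2%, 20.4% and 20.0%, and the 3 bars of each J gene lie close together.

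Share of counts ordered the paralogs differently from share of distinct clonotypes. The part of receptor RNA per cell or of amplification in the counts of each paralog was not tested. TRBV13-2 had 6.001% of distinct TRB clonotypes, TRBV13-1 5.77% and TRBV13-3 4.83%, whereas TRBV13-1 held 5.50% of TRB counts, TRBV13-2 5.09% and TRBV13-3 4.28% (means of 10 samples). TRBV13-1 exceeded TRBV13-2 by 0.411 points of counts in 8 of 10 samples, with an adjusted exact permutation p of 0.0352. This call was lost when any single sample other than CNS4KO replicate 3 or 5 was left out, with a difference of 0.307 to 0.431 points and an adjusted exact permutation p of 0.0586 to 0.0703. TRBV13-2 exceeded TRBV13-1 by 0.236 points of distinct clonotypes, which did not pass (adjusted exact permutation p = 0.299). TRBV13-3 was lowest of the 3 in both measures, and all 4 of its comparisons passed. With a count of at least 2, the difference of TRBV13-2 minus TRBV13-3 was -0.0737 points of counts and -0.0538 points of clonotypes, and neither passed (adjusted exact permutation p = 0.777 and 0.781).

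Counts per clonotype, after every sample was thinned at random to 19199 TRB counts, were 1.23 in TRBV13-1, 1.16 in TRBV13-3 and 1.12 in TRBV13-2. That order held in 10 of 10 samples, and each of the 3 differences had an adjusted exact permutation p of 0.0041. Among 22 TRBV genes, counts per clonotype of TRBV13-2 were the lowest, with TRBV13-3 ranking 19 and TRBV13-1 ranking 16 from the top. At full depth, single-count clonotypes (count of 1) were 87.7% ± 4.13 of TRBV13-2, 84.4% ± 6.08 of TRBV13-3 and 78.7% ± 7.58 of TRBV13-1 clonotypes (SD, n = 10). When only clonotypes with a count of at least 2 were kept, TRBV13-1 had 2.33 points more of the distinct clonotypes than TRBV13-2, with an adjusted exact permutation p of 0.00684. The TRBV13-2 and TRBV13-3 counts per clonotype then no longer passed (adjusted exact permutation p = 0.473).

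**Figure D3:**
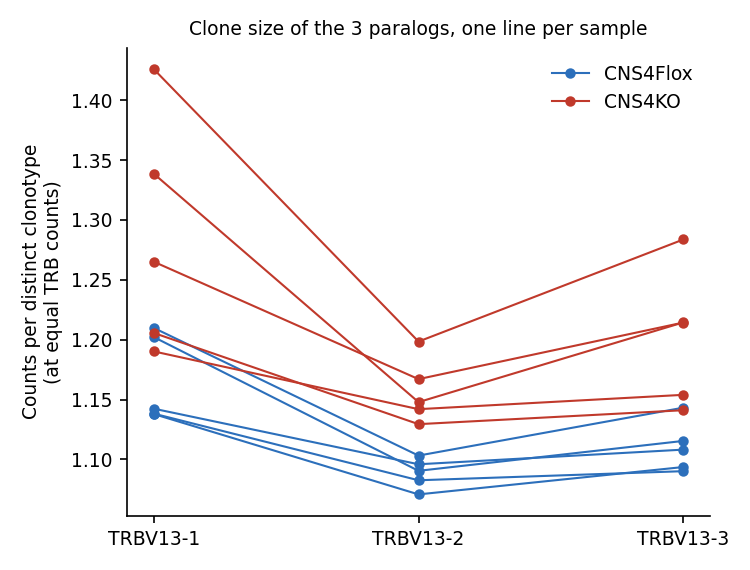
Counts per distinct clonotype at equal TRB counts (y axis) for the 3 paralogs (x axis), with one line per sample, coloured by group. Every line falls from TRBV13-1 to TRBV13-2 and rises to TRBV13-3, and the CNS4KO lines lie higher on average, overlapping at TRBV13-1 and TRBV13-3, with means of 1.29, 1.16 and 1.20 against 1.17, 1.09 and 1.11 in CNS4Flox.

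No paralog passed the test between CNS4KO and CNS4Flox for its share of TRB counts. In order of replicate 1 to 5, TRBV13-1 held 4.47%, 5.21%, 4.51%, 5.99% and 5.39% of the TRB counts of CNS4KO samples, and 6.39%, 5.80%, 6.45%, 5.03% and 5.74% of those of CNS4Flox samples. Its CNS4KO values spread from below to within the CNS4Flox values, and the groups overlapped. TRBV13-2 held 4.08%, 4.98%, 4.87%, 5.28% and 5.41% in CNS4KO and 5.04%, 5.49%, 5.53%, 4.73% and 5.46% in CNS4Flox, with 1 CNS4KO sample below the rest. TRBV13-3 held 3.23%, 3.63%, 3.90%, 5.24% and 4.25% in CNS4KO and 4.72%, 4.70%, 5.09%, 3.81% and 4.19% in CNS4Flox, with the highest value in CNS4KO replicate 4.

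The means were 5.11% ± 0.636 against 5.88% ± 0.580 for TRBV13-1, 4.92% ± 0.522 against 5.25% ± 0.349 for TRBV13-2 and 4.05% ± 0.760 against 4.50% ± 0.502 for TRBV13-3 (SD, n = 5 each). On the log2 scale the differences were -0.20 ± 0.11, -0.09 ± 0.11 and -0.15 ± 0.13 (SE), with adjusted p of 0.644, 0.791 and 0.746 by edgeR's quasi-likelihood test. None of the 3 members passed, nor had any an unadjusted p under 0.05. Over all 22 TRBV genes 0% passed with edgeR, and 4.55% had an unadjusted p under 0.05. DESeq2 passed 0 of the 3 members as well. In these bulk libraries, fewer cells with a receptor and less receptor RNA per cell cannot be told apart.

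**Figure D4:**
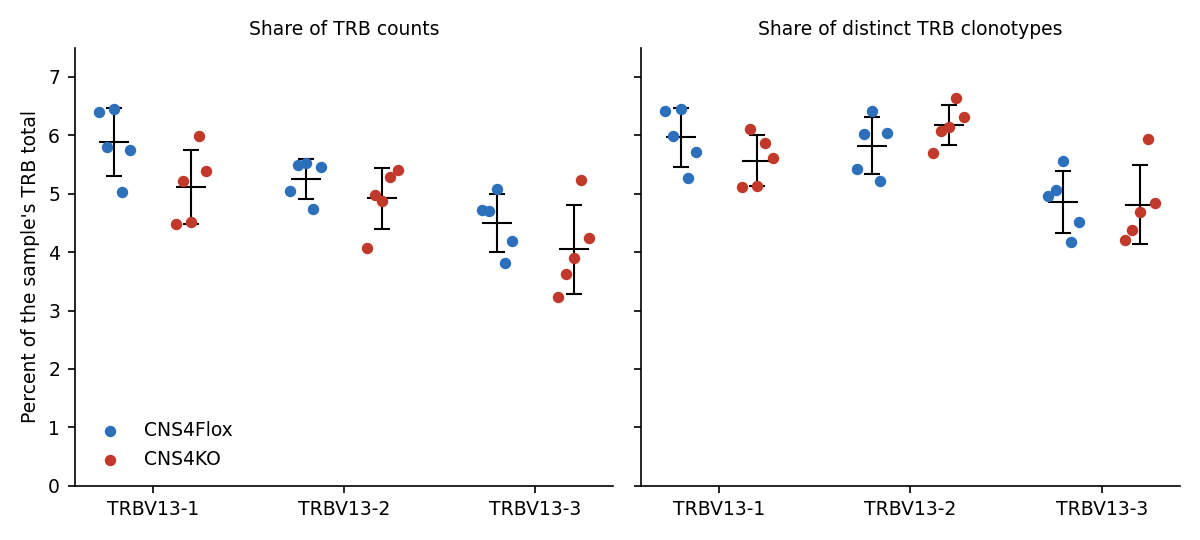
Percent of each sample's TRB counts (left) and of its distinct TRB clonotypes (right) held by each paralog, with one point per sample and the group mean ± SD in black. The groups overlap for all 3 genes in both panels, and TRBV13-3 has the lowest means in both, at 4.05% and 4.50% of counts in CNS4KO and CNS4Flox.

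Counted as distinct clonotypes, the paralogs again did not pass. Of the distinct clonotypes, TRBV13-1 made up 5.57% ± 0.439 in the CNS4KO samples and 5.96% ± 0.499 in the CNS4Flox samples (SD, n = 5 each). TRBV13-2 made up 6.18% ± 0.341 and 5.82% ± 0.491, and TRBV13-3 4.81% ± 0.680 and 4.86% ± 0.532, in the same order. edgeR's quasi-likelihood test called 0 of 3 members, also at an unadjusted p under 0.05, and DESeq2 called 0. Of the 22 TRBV genes, 13.6% passed with edgeR and 22.7% had an unadjusted p under 0.05. The 3 paralogs together held 14.1% ± 1.79 of counts and 16.6% ± 1.26 of distinct clonotypes in CNS4KO, against 15.6% ± 1.30 and 16.6% ± 1.37 in CNS4Flox (SD, n = 5 each).

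The genes lying between and after the paralogs gave other values in the same test. Among the distinct clonotypes, TRBV12-1 rose from a CNS4Flox mean of 5.24% ± 0.401 to a CNS4KO mean of 6.91% ± 0.422 (SD, n = 5 each, edgeR adjusted p = 0.00279). TRBV12-2, the other functional Vbeta5 gene of the cluster, rose from 3.19% ± 0.333 to 3.82% ± 0.250 (SD, n = 5 each, edgeR adjusted p = 0.0457). TRBV14 was 1.92% in CNS4Flox and 1.67% in CNS4KO and did not pass (edgeR adjusted p = 0.0947), and no entry was listed for TRBV12-3. Of the V genes frequent in invariant NKT cells, TRBV29 fell from 3.53% to 3.02% (edgeR adjusted p = 0.0198), and TRBV1 did not pass (edgeR adjusted p = 0.753). TRBV19, frequent in MAIT cells, did not pass either (edgeR adjusted p = 0.795).

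Counts per TRBV13 clonotype were higher in CNS4KO, as were those of most TRBV genes. The labels do not say how many cells each library was made from, and the part of cell number or of receptor RNA per cell in these values was not tested. At equal TRB counts, the CNS4KO samples had 1.34, 1.19, 1.27, 1.43 and 1.21 counts per TRBV13-1 clonotype (replicates 1 to 5), and the CNS4Flox samples 1.14, 1.14, 1.21, 1.14 and 1.20. CNS4KO replicates 2 and 5 lay within the CNS4Flox range, so the groups overlapped. For TRBV13-2 the values were 1.15, 1.14, 1.17, 1.20 and 1.13 in CNS4KO and 1.07, 1.10, 1.10, 1.08 and 1.09 in CNS4Flox, without overlap. For TRBV13-3 they were 1.21, 1.15, 1.21, 1.28 and 1.14 in CNS4KO and 1.09, 1.11, 1.14, 1.09 and 1.12 in CNS4Flox, with CNS4KO replicate 5 just below the highest CNS4Flox sample.

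The differences on the log2 scale were 0.14 ± 0.05 for TRBV13-1, 0.09 ± 0.03 for TRBV13-2 and 0.11 ± 0.04 for TRBV13-3 (SE), with limma adjusted p of 0.0311, 0.0172 and 0.0183. All 3 members passed, as did 95.5% of the 22 TRBV genes, so the call itself does not set the paralogs apart. Groups that did not overlap were found for 1 of the 3 members and for 50% of the 22 genes. From the smallest difference upward, TRBV13-2 ranked 1, TRBV13-3 ranked 2 and TRBV13-1 ranked 6 of 22, and the median over all 22 genes was 0.22. Of other genes low in counts per clonotype, TRBV24 and TRBV3 (ranking 21 and 20 from the top) differed by 0.11 and 0.13. TRBV20 and TRBV5 (ranking 18 and 17) differed by 0.14 and 0.15. Small differences were thus not particular to the paralogs. Counts per clonotype cannot fall below 1, and the part of this floor was not tested. Without thinning, the differences were 0.20, 0.12 and 0.16 and none of the 3 passed, at a limma adjusted p of 0.0509 each. The share of the 22 genes passing without thinning is not given here, so this loss does not set the paralogs apart. The TRBV13-1 call was also lost without CNS4KO replicate 1 (0.12, limma adjusted p = 0.0566), CNS4Flox replicate 1 (0.13, limma adjusted p = 0.0674), CNS4Flox replicate 2 (0.13, limma adjusted p = 0.0662) or CNS4Flox replicate 4 (0.13, limma adjusted p = 0.0653).

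**Figure D5:**
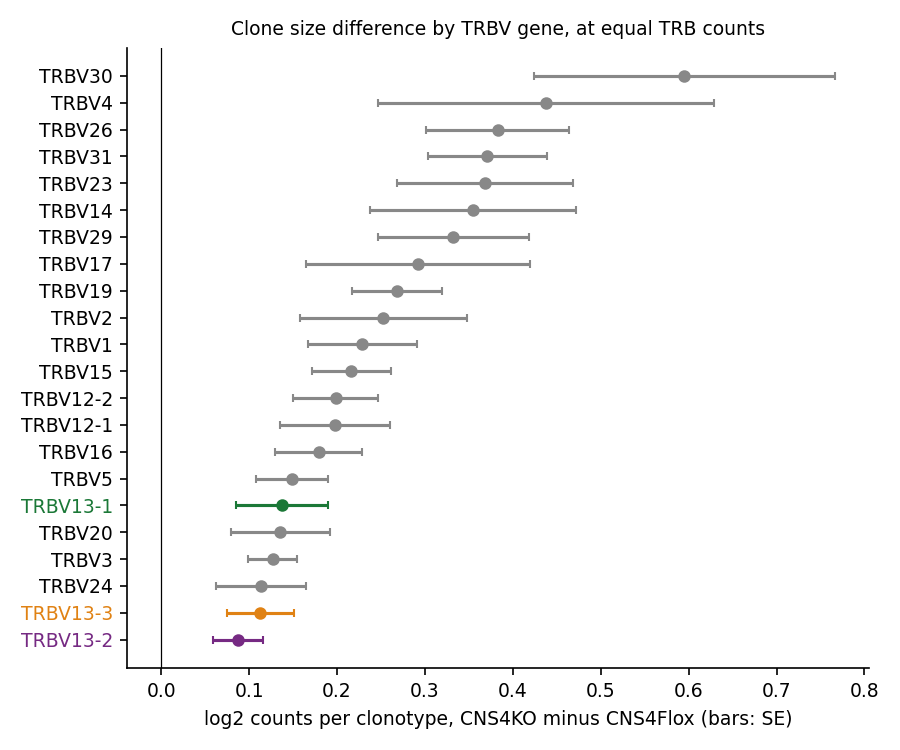
Difference between CNS4KO and CNS4Flox in log2 counts per clonotype at equal TRB counts (x axis) for each of 22 TRBV genes (y axis, sorted), with SE bars and the 3 paralogs in colour. All points lie right of 0, and TRBV13-2 (0.09) and TRBV13-3 (0.11) are at the bottom.

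To place the paralogs against the remaining repertoire, counts per clonotype of each V gene were divided by those of all other TRBV genes in the same sample, a comparison added after the first values were seen. On the log2 scale TRBV13-2 was at -0.44, -0.30, -0.31, -0.28 and -0.17 in the CNS4KO samples (replicates 1 to 5) and at -0.10, -0.11, -0.17, -0.14 and -0.14 in the CNS4Flox samples. The groups did not overlap, although CNS4KO replicate 5 and CNS4Flox replicate 3 nearly met. TRBV13-3 was -0.35, -0.28, -0.25, -0.17 and -0.15 in CNS4KO and -0.07, -0.09, -0.11, -0.13 and -0.10 in CNS4Flox, also without overlap. TRBV13-1 ranged from -0.24 to -0.01 in CNS4KO and from -0.07 to 0.01 in CNS4Flox, with overlap. Counts per clonotype of TRBV13-2 and TRBV13-3 were thus below those of the pool of all other TRBV genes in every sample. This does not hold against each single V gene. At equal TRB counts, TRBV3 and TRBV24 had means of 1.153 and 1.149 over all samples, below the 1.156 of TRBV13-3.

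The differences between groups were -0.12, -0.17 and -0.14 for TRBV13-1, TRBV13-2 and TRBV13-3, with limma adjusted p of 0.0975, 0.0757 and 0.0757. None passed, and over all 22 genes 0% passed, while all 3 members and 36.4% of the genes had an unadjusted p under 0.05. Non-overlapping groups, lower in CNS4KO, were seen for 2 of 3 members and 13.6% of the 22 genes. TRBV24, TRBV3, TRBV20 and TRBV5, also low in counts per clonotype, had differences of -0.14, -0.13, -0.12 and -0.11. The part of the floor of 1 count per clonotype was not tested here either. Without CNS4KO replicate 4 all 3 members passed (limma adjusted p = 0.0234 each). Without CNS4KO replicate 5, TRBV13-2 (-0.20, limma adjusted p = 0.0165) and TRBV13-3 (-0.16, limma adjusted p = 0.0243) passed, and both also passed without the pair of samples sharing most clonotypes (limma adjusted p = 0.0374 and 0.0431). The share of the 22 genes passing with samples left out is not given here, so these calls do not set the paralogs apart.

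No junction feature of the paralogs passed between groups. CDR3 length, inserted bases and V bases kept differed by -0.05 to 0.07 bases between CNS4KO and CNS4Flox in the 3 paralogs. limma called 0 of 3 members for each of these quantities, also at an unadjusted p under 0.05, and 0% of the 22 TRBV genes. An unadjusted p under 0.05 was found in 0% of the genes for CDR3 length, 9.09% for inserted bases and 4.55% for V bases kept. The exact permutation of the samples called 0 members too.

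D gene use of TRBV13-3 was compared in a test added after the values were seen. TRBD2 was called in 37.5%, 36.8%, 36.5%, 35.7% and 33.5% of TRBV13-3 clonotypes of the CNS4KO samples (replicates 1 to 5), and in 31.4%, 33.2%, 34.8%, 32.0% and 31.5% of those of the CNS4Flox samples. CNS4KO replicate 5 lay inside the CNS4Flox range and the other 4 CNS4KO samples above it. The difference of 3.42 points had a limma adjusted p of 0.0896 and did not pass, as for 0% of the 22 genes. It passed without CNS4KO replicate 5 (4.03 points, limma adjusted p = 0.0296), without CNS4Flox replicate 3 (3.98 points, limma adjusted p = 0.0385) and without both (4.59 points, limma adjusted p = 0.0079). How many of the 22 genes passed with samples left out is not given here. In TRBV13-1 and TRBV13-2 the TRBD2 shares differed by -0.215 and 1.03 points. The share of TRBJ2 genes, compared in the same way, gave 0.475, -1.54 and 1.75 points in TRBV13-1, TRBV13-2 and TRBV13-3, none past the limma threshold, with 0% over the 22 genes.

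No V-J pair of the paralogs passed between groups. edgeR's quasi-likelihood test called 0 of 36 TRBV13 pairs with a TRBJ gene, none of them at an unadjusted p under 0.05, and DESeq2 called 0. Over all pairs tested, 0.402% passed with edgeR and 3.61% had an unadjusted p under 0.05. The pairs with the smallest p were TRBV13-2 with TRBJ1-3, 6.28% in CNS4KO against 5.56% in CNS4Flox, and TRBV13-2 with TRBJ2-7, 19.6% against 21.1% (edgeR adjusted p = 0.956 for both).

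TRBV13 receptors were mostly private to a sample. At equal TRB counts, 18.1% ± 0.827 of a sample's TRBV13-2 amino acid clonotypes were also found in at least 1 other sample, against 15.0% ± 0.993 for TRBV13-1 and 13.6% ± 1.04 for TRBV13-3 (SD, n = 10). TRBV13-2 exceeded both others in 10 of 10 samples, and the paralogs ranked 11, 14 and 15 of 22 TRBV genes. The values of different samples depend on each other, so no test was made. In CNS4KO and CNS4Flox the shares were 18.4% and 17.9% for TRBV13-2, 15.4% and 14.6% for TRBV13-1 and 14.1% and 13.1% for TRBV13-3. Without the pair of samples that shared most clonotypes, the 3 shares were 15.0%, 12.3% and 11.1%, in the same order.

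At full depth 23 TRBV13-2, 13 TRBV13-1 and 10 TRBV13-3 amino acid clonotypes were found in 5 or more samples, and none in all 10. They were 0.229%, 0.130% and 0.117% of the amino acid clonotypes of each paralog. At equal TRB counts the numbers, as means of random draws, were 10.05, 6.6 and 3.1. With any single sample left out they fell to between 4.75 and 8.4, 2.3 and 4.95, and 0.90 and 2.45 in the same order, and without CNS4KO replicate 5 and CNS4Flox replicate 3 to 2.45, 2.35 and 0.65. Without CNS4Flox replicate 4 the order of TRBV13-1 and TRBV13-3 turned, at 2.3 and 2.45. The most widespread are shown, in their most frequent nucleotide version, with inserted bases in capitals, to show their junctions.
TRBV13-2, TRBJ2-7: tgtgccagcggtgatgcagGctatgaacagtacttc
TRBV13-1, TRBJ2-7: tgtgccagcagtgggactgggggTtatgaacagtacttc
TRBV13-2, TRBJ2-3: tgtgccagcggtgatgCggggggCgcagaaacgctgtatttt
The versions shown were found in 2, 3 and 2 samples. As amino acid clonotypes, the first was found in 8 samples and the other 2 in 7 each, as 7, 5 and 9 nucleotide versions. In no sample did any of them exceed 3 counts. The first was seen in 5 CNS4Flox and 3 CNS4KO samples, the others in 3 CNS4Flox and 4 CNS4KO samples each.

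Shared receptors had shorter junctions with fewer inserted bases. In TRBV13-2, clonotypes of 1 sample held 4.28 inserted bases on average, those of 2 to 4 samples 2.66, and those of 5 or more samples 1.65. The corresponding values were 4.15, 2.47 and 1.78 in TRBV13-1 and 4.11, 2.54 and 1.77 in TRBV13-3. CDR3 length fell with them, from 41.97 to 40.39 to 39.81 bases in TRBV13-2, from 41.65 to 40.10 to 38.77 in TRBV13-1 and from 41.38 to 40.14 to 39.30 in TRBV13-3. The V match grew, from 13.73 to 14.90 bases between private and most shared TRBV13-2 clonotypes. The most shared class held 155 TRBV13-2, 78 TRBV13-1 and 61 TRBV13-3 entries over the samples, so its means rest on few clonotypes. From private to most shared, mean counts were 1.30, 1.38 and 1.47 in TRBV13-1, 1.16, 1.22 and 1.15 in TRBV13-2 and 1.21, 1.28 and 1.16 in TRBV13-3.

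No single TRBV13 receptor passed between the groups. Of 46 TRBV13 amino acid clonotypes found in at least 5 samples, edgeR's quasi-likelihood test called 0, with 2 at an unadjusted p under 0.05, and DESeq2 called 0. Over all 666 clonotypes tested 0% passed with edgeR and 5.56% had an unadjusted p under 0.05. The 2 with the smallest p were each found in 4 CNS4Flox samples and 1 CNS4KO sample as amino acid clonotypes. Each had 6 nucleotide versions, of which 1 is shown, and the version shown was found in 2 samples. The counts given below cover all versions.
TRBV13-3, TRBJ2-7: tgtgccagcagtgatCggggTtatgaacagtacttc
TRBV13-2, TRBJ2-5: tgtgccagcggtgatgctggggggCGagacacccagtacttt
The TRBV13-3 clonotype held 1, 0, 0, 0 and 0 counts in the CNS4KO samples (replicates 1 to 5) and 0, 3, 2, 1 and 1 in the CNS4Flox samples. The TRBV13-2 clonotype held 0, 0, 0, 0 and 1 counts in CNS4KO and 2, 2, 2, 1 and 0 in CNS4Flox. The edgeR adjusted p was 0.851 for both.

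Since TRBV13-1 and TRBV13-3 carry the same CDR3 start, a receptor of one could be listed under the other. In the same sample, 41 CDR3 nucleotide sequences in all stood under both names, a mean of 4.10 per sample, while 5.39 were common to TRBV13-1 of one sample and TRBV13-3 of another on average. TRBV13-2 shared 7 such sequences with TRBV13-1 and 5 with TRBV13-3, means of 0.70 and 0.50 per sample, against means of 0.0667 and 0.111 between different samples. The 41 sequences were 0.366% of TRBV13-1 and 0.433% of TRBV13-3 clonotypes. The V call rests on sequence outside CDR3, which was not used here, so assignment among the 3 paralogs is uncertain to a degree that these tables do not show.

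Across the 10 samples, the share of distinct clonotypes of TRBV13-1 varied most like that of TRBV16 (Pearson r of log2 shares 0.851) and TRBV15 (0.813). TRBV13-2 varied most like TRBV5 (0.769) and TRBV13-3 (0.677), and TRBV13-3 most like TRBV5 (0.834) and TRBV13-2 (0.677). These are descriptions without a test, and within a library the shares of all V genes have 1 total and 1 depth.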

How the data were processed

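Each deposited table lists the clonotypes of 1 library, with a whole-number count and a fraction of the library total, per the file headers, along with CDR3 sequence, V, D and J names and match positions. The build is mm10, per the submitters' processing notes. The aligner and the caller are not given in the sources used here, nor is whether a count is a read or a molecule. Both receptor chains were primed in reverse transcription and then amplified, per the labels' protocols. Beta chains were recognised by their CDR3 end, and 1167 TRBV13 entries ending as TRBJ1-6 does, a name the tables did not use, were set to TRBJ1-6.

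Shares of TRBV genes, V-J pairs and clonotypes were tested with edgeR 4.0.16 (quasi-likelihood, no TMM, library size the TRB total or distinct total, at least 10 in at least 5 samples; clonotypes in at least 5 samples). Means per gene were tested with limma 3.58.1 over 22 TRBV genes, and counts per clonotype on means of 20 random draws. Paralogs were compared by exact paired permutation. All p-values were adjusted by Benjamini-Hochberg over the whole table. DESeq2 1.42.0, R 4.3.3, Python 3.11.15 and scipy 1.17.1 were also used, and the tests were checked on simulated data. Replicates were numbered in sample order, which pairs nothing. Named pairs and clonotypes are the 2 with the smallest p where none passed, and the 3 clonotypes found in the most samples, ties broken by mean share. The members and lists were chosen with earlier results of these data known. No germline V or protein sequence of TRBV13 was used here.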

Additional observations from a re-analysis of the deposited data

Results flagged for a closer look

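Of 48 groups of 5 samples examined, 1 held a sample far from the others. The mean CDR3 length of TRBV13-1 was 41.66 bases in CNS4KO replicate 1, above the 41.25 to 41.36 bases of the other 4 CNS4KO samples. The gap was 0.720 of the group's range, against a critical value of 0.71. Chance gives about 1 such group in 20.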

How the results depend on the processing

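No paired analysis was possible because the labels give no replicate numbers shared between the groups. Leaving out each sample in turn, leaving out CNS4KO replicate 5 with CNS4Flox replicate 3, other normalisations (TMM, DESeq2), no filter, weighting by count, a count of at least 2 and full depth were run. Removing possible carry-over changed nothing, since no TRBV13 entry met its definition. Calls between groups over the members kept their count except as follows. Counts per clonotype passed for 3 paralogs, 2 to 3 with a sample left out, and 0 at full depth. Relative to other TRBV genes 0 passed, 0 to 3 with a sample left out and 2 without the pair. For TRBD2 0 passed, 0 to 1 with a sample left out and 1 without the pair. Sharing was 17.4%, 21.2% and 16.2% at full depth, and 12.3%, 15.0% and 11.1% without the pair, for TRBV13-1, TRBV13-2 and TRBV13-3. With a sample left out it was 13.4% to 14.3%, 16.4% to 17.1% and 12.1% to 12.7%, since fewer samples were left to share with.

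Uncalled differences between CNS4KO and CNS4Flox changed sign as follows. The TRBV13-3 share of distinct clonotypes (log2) was 0.04 without the pair, 0.0052 with DESeq2, 0.0278 with TMM, 0.0642 at a count of at least 2, and -0.10 to 0.0423 with a sample left out. CDR3 length of TRBV13-1 was -0.0355 weighted by count, -0.239 at a count of at least 2 and -0.0362 to 0.0651 with a sample left out, and that of TRBV13-2 -0.0161 to 0.132 with the pair left out too. Inserted bases of TRBV13-1 were -0.0194 weighted, -0.0570 at a count of at least 2 and -0.0126 to 0.0588 with a sample left out. Those of TRBV13-2 were -0.0234, -0.106 and -0.0179 to 0.0616, the last without the pair. V bases kept were -0.0019 for TRBV13-1 without the pair, and up to 0.0411 with a sample left out. At a count of at least 2 they were 0.0010 for TRBV13-2 and -0.0388 for TRBV13-3, which was -0.0090 to 0.0499 with a sample left out. TRBV13-1 TRBD2 was 0.808 points without the pair and -0.701 to 0.519 with a sample left out, and its TRBJ2 share -0.198 to 0.948, the last without the pair.

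Between paralogs, at a count of at least 2, TRBV13-2 minus TRBV13-3 was -0.0737 points of counts, -0.0538 points of clonotypes and -0.367 inserted bases (adjusted exact permutation p = 0.0176). TRBV13-1 minus TRBV13-2 was 2.33 points of clonotypes and 0.0510 inserted bases. With a sample left out, 13 to 15 of the 21 paralog comparisons passed, against 14 with all samples. TRBV13-1 minus TRBV13-3 was then -0.0270 to 0.0138 inserted bases, and TRBV13-2 minus TRBV13-3 was -0.339 to 0.292 points of TRBJ2. The cause of these changes was not tested. Most TRBV13 clonotypes had a count of 1, which limits values that leave them out.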

Other observations

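Entries with a TRBV13 name but no beta end, left out above, were also counted. Those named TRBV13-3 held 0.595% ± 0.136 of the counts without a beta end in the CNS4KO libraries and 0.576% ± 0.128 in the CNS4Flox libraries (SD, n = 5 each). Those named TRBV13-1 held 0.0432% and 0.0437%, and those named TRBV13-2 held 0.0546% and 0.0683%, in the same order.

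Several nucleotide versions of 1 amino acid receptor within a sample were rare. TRBV13-2 had 1.018 ± 0.0064 nucleotide clonotypes per amino acid clonotype, TRBV13-3 1.012 ± 0.0037 and TRBV13-1 1.011 ± 0.0035 (SD, n = 10).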
